A study of Homo sapiens with 4 samples.

Results

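Myeloid granule protein genes code for the antimicrobial proteins that neutrophils, monocytes and eosinophils store for use against microbes. H3K4me3 (trimethylation of lysine 4 of histone H3) at 10 such genes was compared between THP-1 cells, a monocytic acute myeloid leukemia (AML) line, and RS4;11 cells, a B-precursor acute lymphoblastic leukemia (ALL) line. The 10 genes were MPO, ELANE, PRTN3, AZU1, CTSG, LYZ, RNASE2, RNASE3, S100A8 and S100A9, out of 20136 protein-coding genes, and they were chosen by name. A row of a peak list joins a single peak to a single transcript, and every row that carried the symbol of such a gene was taken. A listed H3K4me3 peak covered the transcript start of 6 of the 10 genes in THP-1 cells (ELANE, LYZ, RNASE2, RNASE3, S100A8 and S100A9) and of 2 in RS4;11 cells (CTSG and LYZ). Over all protein-coding genes the shares were 52.7% and 49%, so the THP-1 count was near that share. Of the 10 genes, 8 were in the group with the lowest ratio of observed to expected CpG dinucleotides around the start. In that group 11.6% of starts were covered in THP-1 and 10.5% in RS4;11 cells. Of these 8 genes, 5 and 2 were covered, so the THP-1 count was above that share and the RS4;11 count not below it. No WDR5 peak was listed with any of the 10 genes in either line, where 1.35% (THP-1) and 4.04% (RS4;11) of all protein-coding genes had a listed one.

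The series held 4 samples, with no treatment named in the labels: WDR5 and H3K4me3 ChIP-seq from each of the 2 lines, with 1 sample per antibody and line. Both lines carry an MLL rearrangement according to the study, so there is no line without a rearrangement to set against them. Each line is a single long-cultured leukemia, and a difference between them cannot be told apart from a difference between the donors, the cultures or the libraries. In the labels, the leukemia types of the WDR5 sample from THP-1 and of the H3K4me3 sample from RS4;11 are interchanged (lymphoblastic and myeloid). The cell line was therefore taken from the labels and the type of leukemia from the study. With 1 sample per group there is no replicate error, and every value below is a description of these libraries with no test. The files give the position of each peak and no reads, heights or p-values, so the depth and the strength of a peak are unknown.

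Granulocytes fill their granules in order during maturation. The azurophil (primary) granules come first, at the promyelocyte stage, and hold myeloperoxidase (MPO) and the neutrophil serine protease family. That family comprises neutrophil elastase (ELANE), proteinase 3 (PRTN3), cathepsin G (CTSG) and azurocidin (AZU1), a relative without protease activity. Lysozyme (LYZ), which cuts bacterial cell walls, is made at several stages and by monocytes. RNASE2 and RNASE3 code for the eosinophil-derived neurotoxin and the eosinophil cationic protein. S100A8 and S100A9 code for the calgranulins, which pair to form calprotectin and are abundant in the cytosol of neutrophils and monocytes. H3K4me3 marks the start sites of active and poised genes, and WDR5 is a shared subunit of the complexes that write it.

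A limit of the lists bears on every gene below. The widest listed H3K4me3 peak was 4478 bp in RS4;11 cells and 4446 bp in THP-1 cells, and 0 of 24212 and 0 of 26523 peaks reached 4500 bp. In the 250 bp of width that start at 4000 bp there were 347 RS4;11 and 245 THP-1 peaks, and in the next 250 bp 118 and 32. A list of 14 genes often used as references in qPCR was added after the files had been seen. A listed peak covered 7 of their starts in RS4;11 and 6 in THP-1 cells, and ACTB, B2M and GAPDH were covered in neither. Over all protein-coding genes 49% and 52.7% of starts were covered, so these counts were near that share. Since no listed peak reached 4500 bp, a start without a listed peak cannot be told apart from a start under a wider, unlisted peak. Every percentile, median and ratio of widths below is likewise among the listed peaks alone. The cause was not tested. Around the granule gene starts without a listed peak, the stretch free of listed peaks ran from 15.1 to 189 kb. Such stretches were not measured over all genes, so these lengths cannot be called long or short.

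The lists also held markers that went with and against the lines. A listed peak covered the start of CD79A and CD79B, genes of the B-cell receptor complex, in RS4;11 cells alone, and of CSF1R, ITGAM, CD86 and CSF3R, myeloid surface receptors, in THP-1 cells alone. Against the labels, the starts of PAX5 and EBF1, B-cell transcription factors, were covered in THP-1 cells alone, and those of SPI1 and CEBPE, myeloid transcription factors, in RS4;11 cells alone. Of 9 B-lineage markers, 3 had a covered start in RS4;11 and 3 in THP-1 cells, and of 10 monocyte and myeloid markers 4 and 6. Over all protein-coding genes the shares were 49% in RS4;11 and 52.7% in THP-1 cells. The myeloid counts were near these shares and the B-lineage counts below them. VPREB1, IGLL1, RAG1 and DNTT of the first list and FCGR1A and CEBPA of the second had no covered start in either line. CD22, a B-cell receptor inhibitor, was covered in both lines, by peaks of 2769 bp in RS4;11 cells and 653 bp in THP-1 cells. The myeloid markers CD14 (peaks of 1004 and 1335 bp) and CD33 (1075 and 3357 bp) were also covered in both. These markers do not settle from which line each H3K4me3 list came. An exchange of the lists, which would reverse every direction between the lines given below, was not tested, and these directions rest on the cell line in the labels.

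The count of granule genes turned on what a peak of a gene means. The authors joined a peak to every transcript within 20 kb, and by that rule 9 of the 10 genes were listed with an H3K4me3 peak in RS4;11 cells (73.4% of all protein-coding genes were listed) and all 10 in THP-1 cells (78.3%). The gene listed in THP-1 cells alone was S100A8 (8.92% of all genes), and none was listed in RS4;11 cells alone (3.99%). In all, 18 rows for 14 distinct peaks in RS4;11 cells and 19 rows for 16 distinct peaks in THP-1 cells carried a member symbol. Most of these peaks lay away from the start. A peak covered the start of the main (MANE Select) transcript for 2 of the 10 genes in RS4;11 cells, where 49% of all protein-coding starts were covered, and for 6 in THP-1 cells, where 52.7% were. Beside all protein-coding genes, the 10 genes thus had fewer covered starts in RS4;11 cells and a similar share in THP-1 cells. This did not hold beside starts with few CpG dinucleotides, a comparison given below. Of the 8 genes in the group with the lowest CpG ratio, 2 were covered in RS4;11 cells, where 10.5% of that group was. In THP-1 cells 5 of these 8 were covered, where 11.6% of that group was. Where the lines differed, 5 starts were covered in THP-1 cells alone (11.2% of all genes), 1 in RS4;11 cells alone (7.51%), 1 in both (41.5%) and 3 in neither (39.8%). Start coverage was chosen as a measure after the files had been seen.

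**Figure D1:**
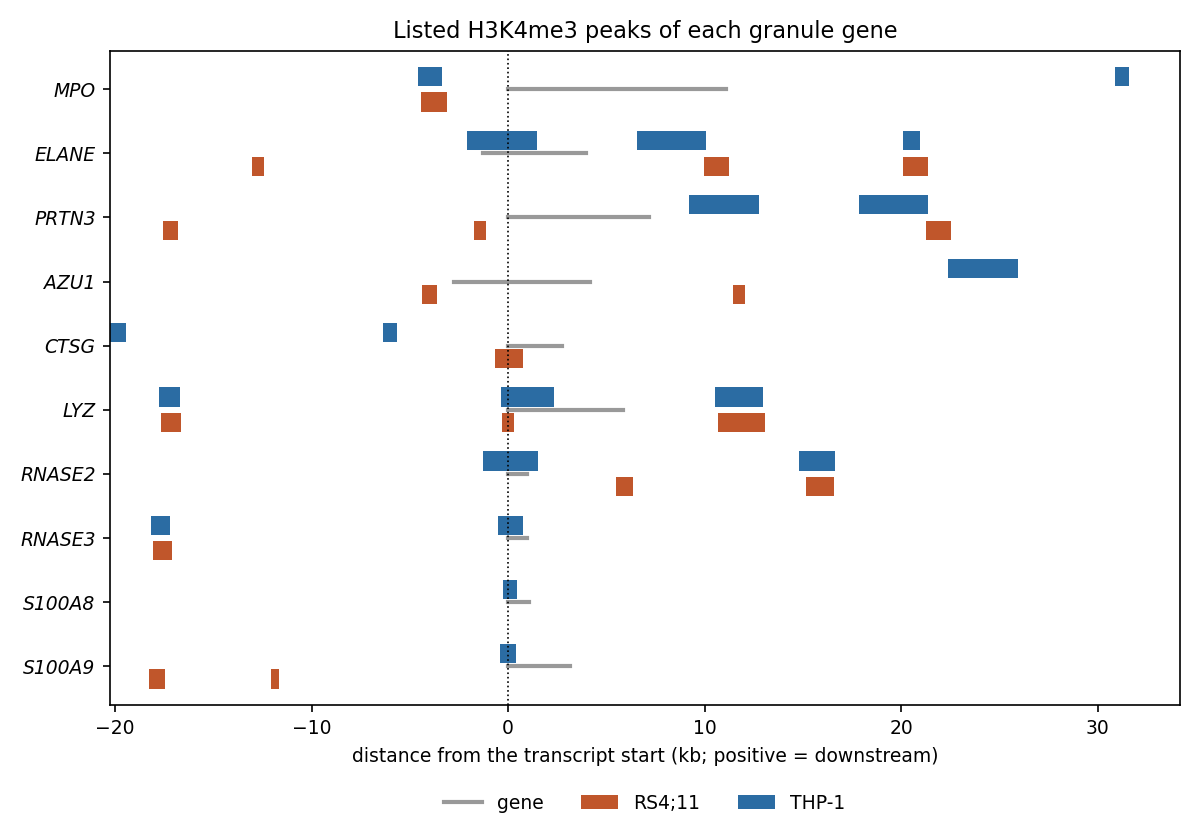
Every H3K4me3 peak listed with each of the 10 genes, placed by its distance from the transcript start in kb (x axis, positive is downstream in the direction of the gene), with THP-1 peaks above and RS4;11 peaks below the grey line of the gene. THP-1 peaks cross the dotted line of the start at ELANE, LYZ, RNASE2, RNASE3, S100A8 and S100A9, and RS4;11 peaks at CTSG and LYZ; the other peaks lie 1104 bp or farther from the start.

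By role, the genes differed more than their sum shows. Of the 5 azurophil genes (MPO, ELANE, PRTN3, AZU1 and CTSG), 1 had a covered start in THP-1 cells and 1 in RS4;11 cells, and these were not the same gene. LYZ was covered in both lines. Both ribonuclease genes and both calgranulin genes were covered in THP-1 cells and not in RS4;11 cells. Within 2000 bp of the start, a window of 4001 bp, the median over the 10 genes was 0 bp under a peak in RS4;11 cells and 757.5 bp in THP-1 cells. Over all protein-coding genes these medians were 827 and 1406 bp.

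**Figure D2:**
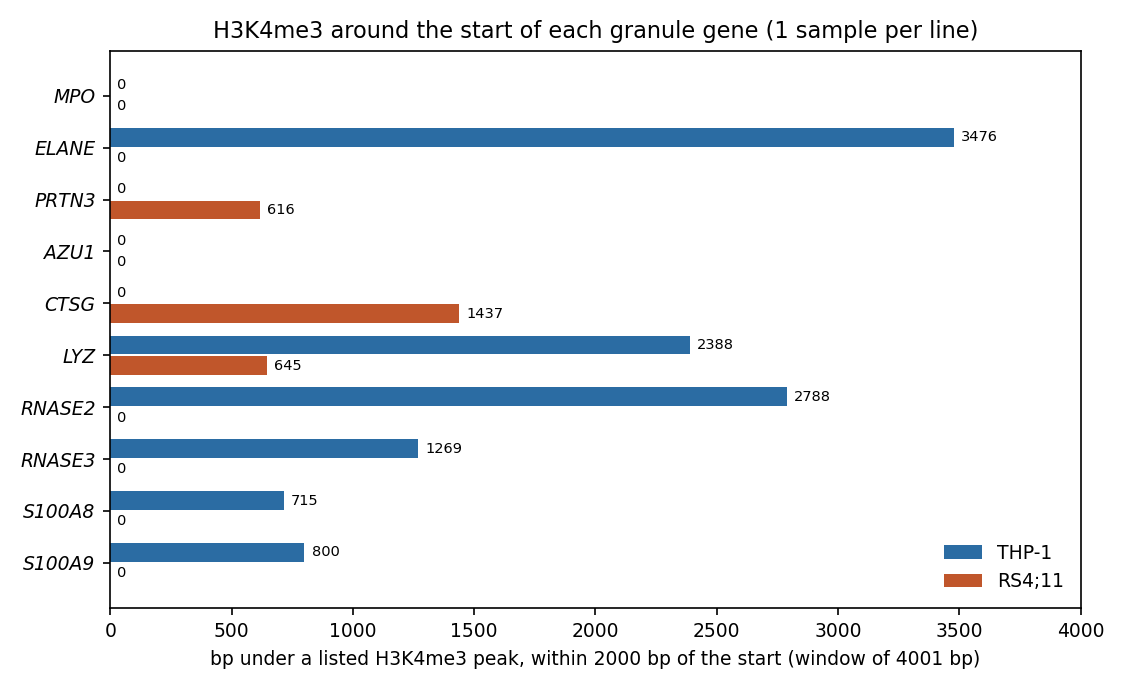
Bases under a listed H3K4me3 peak within 2000 bp of the transcript start (x axis, bp of 4001) for each gene, 1 sample per line, so there are no error bars. ELANE has the longest THP-1 bar (3476 bp) and CTSG the longest RS4;11 bar (1437 bp), and both bars are at 0 for MPO and AZU1.

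ELANE, PRTN3 and AZU1 lie side by side on chromosome 19, all on the plus strand, and are shown first because they hold the same short motif at the same distance from the start, while a listed peak covers the start of ELANE alone, in THP-1 cells. The 30 bases from 45 to 16 bp before each start follow, at chr19:852258-852287 for ELANE, chr19:840954-840983 for PRTN3 and chr19:827792-827821 for AZU1 (GRCh37, which has the coordinates of hg19, plus strand). Capitals mark TATAA, the core of the TATA box, which lies from 31 to 27 bp before the start in all of them.
ELANE: tcccagcacagggcTATAAgaggagccggg
PRTN3: ctctggcattgggcTATAAgaggagcttga
AZU1: tgccaaggcctgtgTATAAgggcagccgcc
Over the 200 bp before the start, ELANE and PRTN3 shared 92 of 139 aligned bases (66.2%) in a local alignment. The longer ELANE sequence is not printed, since part of it is an exon of another ELANE transcript.

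ELANE (chr19:851014-856247, 5 exons) had the widest peak of the 10 genes. In THP-1 cells it was 3581 bp long, at chr19:850198-853778, and ran from 2105 bp upstream to 1475 bp downstream of the start, over exons 1 to 3. This width was at the 96.3 percentile of all listed THP-1 peaks and the 89.5 percentile of those over a protein-coding start. Both percentiles would be lower if wider peaks are missing from the list. In RS4;11 cells the nearest listed peak began 9936 bp downstream, and the stretch without a listed peak around the start was 22.3 kb. ELANE therefore differed between the libraries over 3476 bp of its start window against 0. The same THP-1 peak also covered the 5′ end of a longer ELANE transcript, 1289 bp upstream.

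PRTN3 (chr19:840999-848175, 5 exons) and AZU1 (chr19:825097-832018, 5 exons) had no covered start in either line. In THP-1 cells both were listed because of peaks of their neighbors. PRTN3 was joined to the ELANE peak, 9199 bp downstream of its start, and to a 3498 bp peak over the start of CFD (complement factor D, a serine protease of the same cluster). AZU1 was joined to the ELANE peak alone, 22361 bp from its start. In RS4;11 cells a 616 bp peak at chr19:839280-839895 lay from 1719 to 1104 bp upstream of PRTN3. It was listed with ELANE, AZU1, CFD and LPPR3 as well, and no THP-1 peak shared a base with it. A 747 bp RS4;11 peak at chr19:823450-824196 lay 3641 bp upstream of the main AZU1 start and 901 bp from the 5′ end of a longer AZU1 transcript. It was also joined to PTBP1, the splicing factor gene on the other side of AZU1. Around the starts of PRTN3 and AZU1 in THP-1 cells, 66.2 kb held no listed peak. PTBP1 lies in the same stretch, and its start was under a 4023 bp peak in RS4;11 cells and under no listed peak in THP-1 cells. Whether a wider, unlisted peak lies in this stretch was not tested.

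MPO (chr17:56347216-56358296, minus strand, 12 exons) codes for the enzyme that makes hypochlorous acid in the azurophil granule. Its start was covered in neither line. Both lines had instead a peak upstream of it, 1341 bp wide at chr17:56361403-56362743 in RS4;11 cells and 1196 bp wide at chr17:56361679-56362874 in THP-1 cells. These peaks shared 1065 bp, or 79.4% of the RS4;11 peak and 89% of the THP-1 peak, and their near edges were 3107 and 3383 bp from the start. Both were listed with BZRAP1 and with LPO (lactoperoxidase, a relative of MPO). THP-1 cells had 1 more, of 717 bp, 30855 bp from the start and beyond the end of the gene. So the listed peak nearest to the MPO start was largely the same interval in both lines.

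CTSG (chr14:25042724-25045456, minus strand, 5 exons) was the sole gene of the 10 covered in RS4;11 cells and not in THP-1 cells. The RS4;11 peak, at chr14:25044715-25046151, was 1437 bp wide and ran from 695 bp upstream to 741 bp downstream, over exon 1. Its width was at the 51.3 percentile of all RS4;11 peaks and the 8.24 percentile of those over a start. In THP-1 cells the nearest listed peak was 735 bp wide and ended 5654 bp upstream, and another of 780 bp, joined also to GZMH (granzyme H), lay 19465 bp upstream. The stretch without a listed peak around the CTSG start in THP-1 cells was 138 kb. The 200 bases before the start (chr14:25045457-25045656, GRCh37, minus strand) lie under the RS4;11 peak and are shown because no other of the 10 genes had a start covered in RS4;11 cells alone. Capitals mark GAGGAA on either strand (TTCCTC is its complement), letters found in the sites of ETS factors such as PU.1.
CTSG: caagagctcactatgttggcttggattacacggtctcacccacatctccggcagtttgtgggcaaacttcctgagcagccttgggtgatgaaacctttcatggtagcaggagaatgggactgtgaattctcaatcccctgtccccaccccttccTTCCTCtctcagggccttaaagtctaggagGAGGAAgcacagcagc
The motif was found at 46 to 41 and at 16 to 11 bp before the start.

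LYZ (chr12:69742161-69748014, plus strand, 4 exons) was the gene with a covered start in both lines. The RS4;11 peak was 645 bp wide (chr12:69741834-69742478, from 327 bp upstream to 317 bp downstream, over exon 1). In THP-1 cells the peak was 2709 bp wide (chr12:69741774-69744482, from 387 bp upstream to 2321 bp downstream, over exons 1 and 2). All 645 bp of the RS4;11 peak lay inside it, so the lines differed on the downstream side. The ratio of widths, THP-1 over RS4;11, was 4.2. Over the 8363 genes with a covered start in both lines the median ratio was 0.995, and 12 of them (0.143%) had a ratio at least as large as that of LYZ. Among peaks over a start, the RS4;11 width was at the 0.911 percentile of its library and the THP-1 width at the 62.3 percentile. The large ratio thus went with a very narrow RS4;11 peak and not with an unusually wide THP-1 peak. The peaks to each side of LYZ differed less. Upstream, 1048 and 1092 bp wide peaks shared 991 bp, and downstream, peaks of 2372 and 2414 bp over the start of YEATS4, a chromatin reader gene, shared 2266 bp. Within the same 20 kb, the LYZ start was thus the place where the widths of the lines stood apart.

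RNASE2 (chr14:21423646-21424595, plus strand, 2 exons) and RNASE3 (chr14:21359544-21360507, plus strand, 2 exons) each had a THP-1 peak over the start and over both exons. The RNASE2 peak was 2788 bp wide (chr14:21422374-21425161, from 1272 bp upstream to 1515 bp downstream), at the 87 percentile of all THP-1 peaks. The RNASE3 peak was 1269 bp wide (chr14:21359038-21360306, from 506 bp upstream to 762 bp downstream), at the 51.1 percentile. In RS4;11 cells neither start was covered, and both starts lay in the same stretch of 86.7 kb without a listed peak. The nearest RS4;11 peaks were 5462 bp from the RNASE2 start and 17120 bp from the RNASE3 start. Farther out, the lines shared peaks: a 1406 bp RS4;11 peak 15173 bp downstream of RNASE2, joined also to METT11D1, lay wholly inside a THP-1 peak of 1830 bp, and 841 bp were shared between peaks of 936 and 939 bp upstream of RNASE3.

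These genes are close paralogs, and their start regions are shown because reads of alike sequence could be lost or placed at either copy. The bases are the 200 before each start, chr14:21423446-21423645 for RNASE2 and chr14:21359344-21359543 for RNASE3 (GRCh37, plus strand). Capitals mark TTGCNNAA, letters found in sites of C/EBP factors, where N is any base.
RNASE2: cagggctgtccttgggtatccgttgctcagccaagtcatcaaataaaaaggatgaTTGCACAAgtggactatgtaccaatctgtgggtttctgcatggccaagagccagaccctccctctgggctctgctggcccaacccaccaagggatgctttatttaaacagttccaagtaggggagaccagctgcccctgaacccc
RNASE3: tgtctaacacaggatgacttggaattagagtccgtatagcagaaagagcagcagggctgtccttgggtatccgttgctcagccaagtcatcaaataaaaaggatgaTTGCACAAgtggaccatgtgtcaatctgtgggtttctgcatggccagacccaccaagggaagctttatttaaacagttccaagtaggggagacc
A local alignment held 145 identical bases in 183 columns (79.2%), with the RNASE3 sequence shifted by about the distance between the motif positions, which are 145 to 138 bp before the RNASE2 start and 94 to 87 bp before the RNASE3 start. The authors kept reads with a unique alignment, so the width of both peaks is uncertain where the copies are alike.

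S100A8 (chr1:153362508-153363549, minus strand, 3 exons) and S100A9 (chr1:153330330-153333499, plus strand, 3 exons) had narrow THP-1 peaks over their starts. At S100A8 the peak was 715 bp wide (chr1:153363102-153363816, from 267 bp upstream to 447 bp downstream), and at S100A9 it was 800 bp wide (chr1:153329910-153330709, from 420 bp upstream to 379 bp downstream). Each covered exon 1. Among THP-1 peaks over a protein-coding start, these widths were at the 1.5 and 2.42 percentiles. In RS4;11 cells S100A8 was listed with no peak at all, and S100A9 with peaks of 809 and 407 bp, 17475 and 11644 bp upstream, that were joined also to PGLYRP4. Both starts lay in the same RS4;11 stretch of 189 kb without a listed peak. S100A12, the calgranulin gene between them, was listed with these THP-1 peaks, but its own start was covered in neither line.

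**Figure D3:**
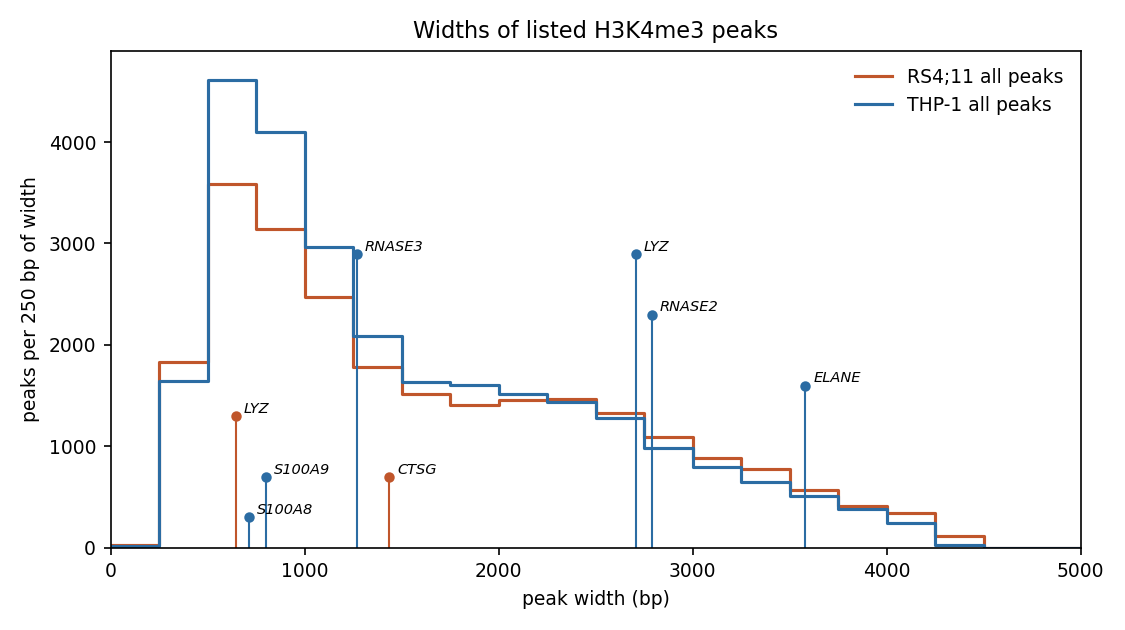
Number of listed H3K4me3 peaks per 250 bp of width (y axis) against peak width in bp (x axis) in each line, with a vertical line at the width of each peak over a granule gene start, in the color of its cell line (the height of these lines has no meaning). The peaks of S100A8 (715 bp), S100A9 (800 bp) and, in RS4;11 cells, LYZ (645 bp) stand where peaks are most frequent, ELANE (3581 bp) stands in the upper tail, and no peak reaches 4500 bp.

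Widths were set beside the other peaks of each library. The median width of all peaks was 1391 bp in RS4;11 cells and 1241 bp in THP-1 cells, and over protein-coding starts it was 2607 and 2441 bp. Of the 6 THP-1 peaks over a granule gene start, those of ELANE, LYZ and RNASE2 were wider than that second median and those of RNASE3, S100A8 and S100A9 narrower. Both RS4;11 peaks, at CTSG and LYZ, were narrower. Summed over every peak listed with a gene, the median over the 10 genes was 1400 bp in RS4;11 cells and 2894.5 bp in THP-1 cells, but this sum counts peaks of neighboring genes, such as those of CFD and YEATS4, and is no measure of the gene alone.

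The peaks of the lines were also compared base by base. For 6 of the 10 genes (MPO, ELANE, PRTN3, LYZ, RNASE2 and RNASE3), at least 1 listed peak shared at least 1 bp between the lines. Of the peaks over a start, LYZ alone was among them. At the remaining genes the shared bases lay in peaks away from the start, such as the 850 bp in common between peaks of 1290 and 875 bp about 20 kb downstream of ELANE. AZU1, CTSG, S100A8 and S100A9 had no base in common. The share of all genes with such an overlap was not taken, so these counts cannot be called high or low.

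No WDR5 peak was listed with any of the 10 genes, among the 703 RS4;11 and 225 THP-1 WDR5 peaks. The background was low: 4.04% of all protein-coding genes were listed with a WDR5 peak in RS4;11 and 1.35% in THP-1 cells, and a count of 0 among 10 genes is near that share. In RS4;11 cells the nearest WDR5 peak lay from 140 kb (RNASE3) to 3826 kb (CTSG) from the start. In THP-1 cells the distance ran from 242 kb (ELANE) to 3486 kb (S100A9), and chromosome 14, which holds CTSG and both ribonuclease genes, had no listed WDR5 peak. That no peak was listed does not show that WDR5 was not there.

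The start regions of the genes had a feature in common that their choice did not use. Within 500 bp of the start, the ratio of observed to expected CpG dinucleotides had a median of 0.18 over the 10 genes and of 0.72 over all protein-coding genes. The ratio was lowest at MPO and CTSG (0.11), followed by LYZ (0.13), S100A8 (0.15), RNASE2 (0.17), S100A9 (0.20), RNASE3 (0.26), PRTN3 (0.31), AZU1 (0.42) and ELANE (0.50). Starts with few CpG were seldom under a listed peak. In the 25% of genes with the lowest ratio (up to 0.40), the RS4;11 list covered 10.5% of starts and the THP-1 list 11.6%. In the next 25% (up to 0.72) the shares were 53.6% and 61.3%. Of the 10 genes, 8 were in the lowest group, and among them the RS4;11 list covered 2 starts and the THP-1 list 5. In THP-1 cells alone, 4 of these 8 were covered (LYZ was covered in both lines), where 4.95% of that group was, and 1 in RS4;11 cells alone, where 3.79% was. The 2 genes of the next group were ELANE, covered in THP-1 cells, and AZU1, covered in neither. The comparison within these groups was added after the files had been seen. Listed peaks over starts of the lowest group were also narrower, with medians of 1893.5 bp in RS4;11 cells and 1849 bp in THP-1 cells, and 6.82% and 8.53% of them were 3500 bp or wider, against 23% and 16.2% in the 25% with the highest ratio. Since the lists hold no peak of 4500 bp or wider, these widths cannot show how often starts of either group lie under such a peak.

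**Figure D4:**
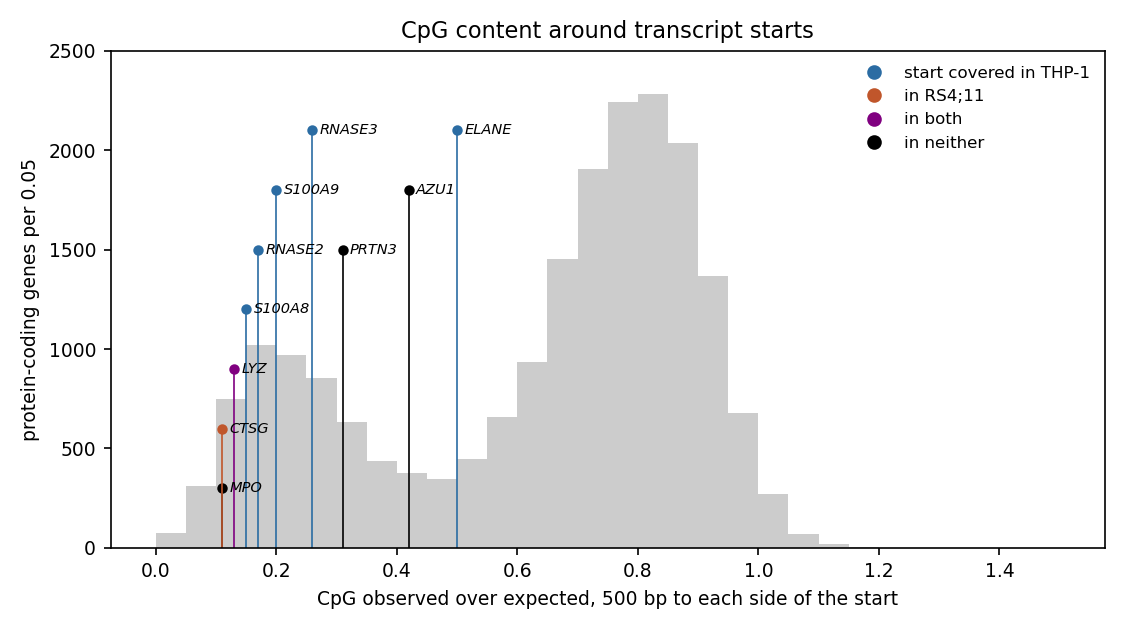
Number of protein-coding genes (y axis) per 0.05 of the ratio of observed to expected CpG within 500 bp of the transcript start (x axis), with each granule gene marked at its ratio and colored by the line in which its start was covered (the height of these lines has no meaning). The 10 genes lie at 0.11 to 0.50, below the median of 0.72.

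Short motifs were searched on both strands of the 200 bp before each start, and no match of 1 motif overlapped a match of another at these genes. TATAA was found at ELANE, PRTN3, AZU1, S100A8 and S100A9, which is 5 of 10, and in 13.2% of all protein-coding promoters. At S100A8 and S100A9 it lay from 29 to 25 bp before the start. GAGGAA was found at MPO, ELANE, PRTN3, CTSG and S100A8 (18.8% of all promoters), and TTGCNNAA at PRTN3, AZU1, RNASE2 and RNASE3 (5.38%). Genes with each motif were found among those with a covered THP-1 start and among those without. For TATAA, the covered genes were ELANE, S100A8 and S100A9. A match is a string of letters and not a bound site, and LYZ had none of the 3 in this window.

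Other genes of the granules were read from lists drawn up from textbook knowledge. Over all protein-coding genes, 49% of starts were covered in RS4;11 and 52.7% in THP-1 cells. Among 10 further azurophil and granule processing genes, 5 starts were covered in RS4;11 and 3 in THP-1 cells. BPI (a protein that binds endotoxin) and CD63 (a membrane protein of the granule) were covered in both lines. CFD was covered in THP-1 cells alone by the 3498 bp peak next to ELANE, and SRGN (the proteoglycan that packs granule proteins), CST7 (a protease inhibitor) and PRSS57 (a granule serine protease) in RS4;11 cells alone, by peaks of 3259, 3161 and 3358 bp. Like CTSG, the last 3 of these had a covered start in the lymphoblastic line alone. No listed peak covered CTSC, the gene of the protease that activates the granule serine proteases, or the defensin genes DEFA1, DEFA3 and DEFA4.

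Genes of the later granules had few covered starts beside the share over all protein-coding genes. The further lists were not set beside genes of like CpG ratio, so these counts show no stage of maturation. Of 10 specific and gelatinase granule genes, such as LTF and MMP8, 0 were covered in RS4;11 and 1 in THP-1 cells, CYBB (a subunit of the NADPH oxidase), by a peak of 727 bp. Of 6 further eosinophil granule genes and relatives, RNASE6 alone was covered, in both lines, by peaks of 2876 bp in RS4;11 cells and 958 bp in THP-1 cells, and EPX, PRG2, PRG3, CLC and RNASE1 were covered in neither. RNASE2 and RNASE3, covered in THP-1 cells alone, thus differed in pattern from each of these 6. Monocyte lysosomal and effector genes had 3 of 8 covered starts in RS4;11 and 6 in THP-1 cells. CTSS, CTSB and CTSD, lysosomal cathepsins, were covered in both, with a CTSS peak of 2113 bp in RS4;11 cells and 3787 bp in THP-1 cells. CD68 (2676 bp), LGALS3 (2058 bp) and TYROBP (2761 bp) were covered in THP-1 cells alone, and FCN1 and VCAN in neither.

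Other S100 genes of the same cluster on chromosome 1 had another pattern. Of 5 such genes, 4 starts were covered in RS4;11 and 3 in THP-1 cells. S100A4, S100A6 and S100A10, which are made in many cell types, were covered in both by peaks of 1773 to 3117 bp, and S100A11 in RS4;11 cells alone by a peak of 3525 bp. S100A12, which lies between S100A8 and S100A9, was covered in neither. S100A10 and S100A11, with starts at chr1:151966335 and chr1:152009480, lie farther from S100A8 and S100A9 than the others. Set beside them, S100A8 and S100A9 were covered in THP-1 cells alone.

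**Figure D5:**
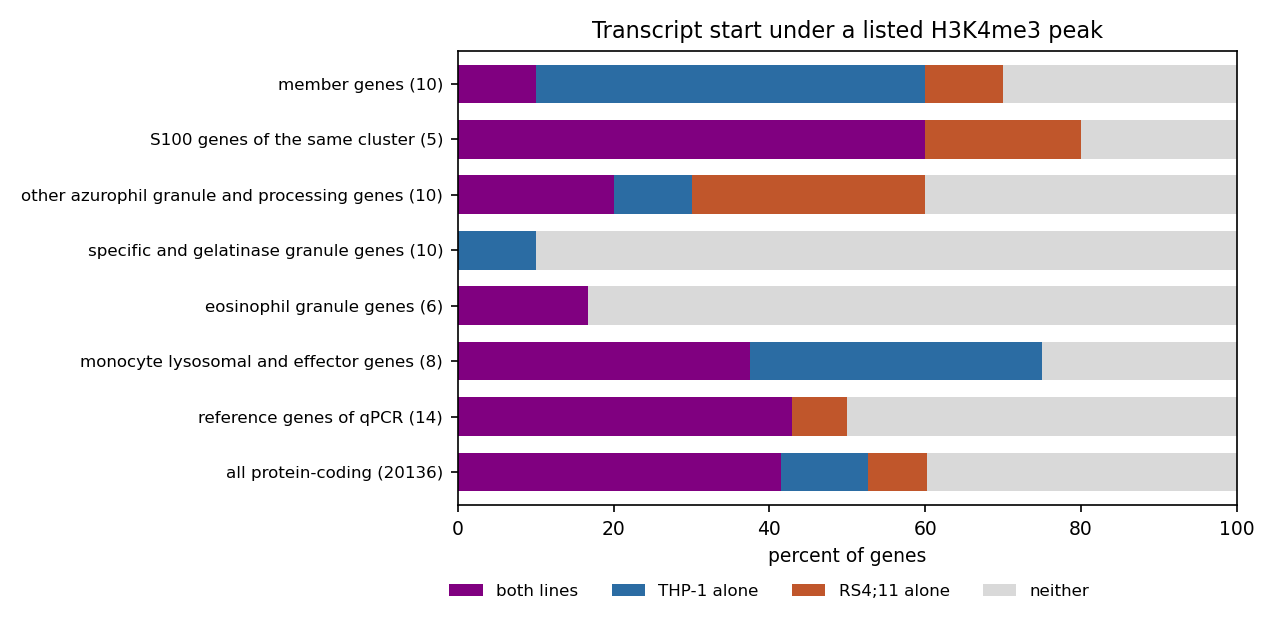
Percent of genes (x axis) whose transcript start was under a listed H3K4me3 peak in both lines, in THP-1 cells alone, in RS4;11 cells alone or in neither, for each list, with the number of genes in parentheses. The 10 granule genes have the largest part for THP-1 cells alone (5 genes), while 3 of the 10 other azurophil and processing genes are covered in RS4;11 cells alone.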

How the data were processed

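ChIP-seq of WDR5 (ab56919, chromatin fragmented by sonication) and of H3K4me3 (ab8580, fragmented with micrococcal nuclease) was done by the authors in RS4;11 and THP-1 cells, 4 samples with 1 per group. Reads were aligned by the authors to hg19 in Eland with up to 2 mismatches, and those with a unique position were kept. Peaks came from MACS with its defaults and were joined to transcripts within 20 kb. The submitters' processing notes name CASAVA 1.7 and 1.8.2. The MACS version and any input control are not given in the sources used here. The deposited files hold peak positions, transcripts, gene symbols and yes or no flags (upstream, downstream, exon, intron), and no other values, so depth is unknown.

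Rows were reduced to distinct peaks and matched by symbol, or else by RefSeq accession or an unambiguous synonym, to 20136 protein-coding genes of GENCODE release 44 on GRCh37. Of 18576 symbols in the files, 16654 matched. The start was that of the MANE Select transcript (18917 genes), otherwise the Ensembl canonical (939) or another transcript. At most 37 peaks in a file lay on other sequences, and 0 ran past a chromosome end. Peaks on other sequences stayed in the counts and widths of all peaks but could cover no gene start. CpG ratios used 1001 bp. The interval code was tested on simulated data (1500 of 1500 windows right). Python 3.11.15, numpy 2.4.6, scipy 1.17.1, biopython 1.88 and matplotlib 3.10.9 were used. The members and lists were chosen with earlier results of these data known. The genes named were all members, genes sharing their peaks and, from each list, those with the widest summed THP-1 peaks or a peak in RS4;11 cells alone. Genes named for a covered start and markers were added after their values were seen. A B-lineage marker of the planned list is not reported here. Alternatives changed the rule joining peaks to genes, the width measure, the overlap and the background.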

Additional observations from a re-analysis of the deposited data

How the results depend on the processing

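The number of genes with a peak depended on the rule that joined peaks to genes, since the rule of the files takes in peaks of neighbors up to 20 kb away. In THP-1 cells the count was 10 as listed, and 6 with peaks flagged in an exon or intron, from 2000 bp upstream to 500 bp downstream of the start, within 1000 bp of it, over the start and over the 5′ end of the gene. In RS4;11 cells it was 9 as listed, 3 from 2000 bp upstream to 500 bp downstream (with PRTN3), and 2 by the flags, within 1000 bp, over the start and over the 5′ end. Genes with a peak in THP-1 cells and none in RS4;11 cells numbered 1 as listed, 5 by each of these 5 rules (ELANE, RNASE2, RNASE3, S100A8 and S100A9), 3 by the nearest start (ELANE, S100A8 and S100A9) and 2 with peaks of at least 1000 bp (AZU1 and RNASE3), which drops the calgranulin peaks. The rules over the start and the 5′ end were added after the files had been seen. Taking the nearest start gave 8 and 6 genes in THP-1 and RS4;11 cells, and the minimum width gave 7 and 6. The share of all protein-coding genes was taken for the listed rule and the rule over the start alone. Counts of H3K4me3 genes by the other rules therefore have no background beside them. WDR5 stayed at 0 genes in all 7 alternatives. Peaks overlapped between lines at 6 genes by 1 bp and at 5 by 50% of the smaller peak, with no share over all genes taken for either. The median width per gene was 1400 bp in RS4;11 cells and 2894.5 bp in THP-1 cells as a sum, 1289.5 and 1989 bp for the widest peak, and 0 and 757.5 bp within 2000 bp of the start. The share of genes listed in THP-1 cells alone was 8.92% of protein-coding genes and 11.7% of the symbols in the files.

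No paired analysis was possible because each group has 1 sample, and for the same reason none was left out. Filters on peak strength were not run, since the files give no strength. The lists hold no H3K4me3 peak of 4500 bp or wider, and a start without a listed peak cannot be told apart from a start under a wider one. This limits every statement on MPO, PRTN3 and AZU1 in both lines, on CTSG in THP-1 cells and on ELANE, the ribonuclease genes and the calgranulin genes in RS4;11 cells. Percentiles, medians and ratios of widths are likewise among the listed peaks alone.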
